A study of Danio rerio with 12 samples.

Results

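The genes described here are the zebrafish carriers of zinc, iron and copper, with a few partners that reduce, receive or hand on these metals. They were taken by symbol from the deposited gene table: all entries starting with slc30a, slc39a, slc31a, slc40a, slc11a2, slc25a37, slc25a28, tfr, atp7, atox1, steap or hamp, with the paralogs slc30a1a and slc30a1b left out. The rule gave 34 of 32057 genes and used no measured value. There were 8 SLC30 genes, 10 SLC39 genes, 8 iron genes, and 8 copper and STEAP genes. Of the 34, 32 had a mean deposited FPKM (fragments scaled to gene length and library size) of at least 0.5 over the 12 libraries and were tested, while slc39a4 and atp7b fell under that level. A gene listed in capitals as SLC39A11 did not match the pattern and was not included.

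The data were poly(A) RNA-seq libraries of whole wild-type zebrafish embryos. There were 4 groups of 3 libraries: untreated controls, and embryos kept in methylmercury (MeHg) at 6, 30 or 50 µg/L from 4 to 72 h post-fertilisation. MeHg is an organic mercury compound that binds thiol groups, and the series asked which genes report its toxicity in embryos. The labels give wild type as the genotype of every sample but name no strain, and they do not say whether replicate libraries stem from separate clutches or dishes, so the p-values measure the spread between these samples, which may be technical. In whole-embryo RNA, a lower level from fewer cells of a type and one from less RNA per cell cannot be told apart.

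Zinc is moved by 2 protein families that work in opposite directions. SLC30 proteins (ZnT) lower cytosolic zinc by carrying it out of the cell or into vesicles, and SLC39 proteins (ZIP) raise it by carrying zinc in or releasing it from organelles. Iron bound to transferrin enters through transferrin receptors, leaves the endosome through the divalent metal transporter Slc11a2 (DMT1), reaches mitochondria through the mitoferrins Slc25a37 and Slc25a28, and leaves the cell through ferroportin (Slc40a1), which the liver hormone hepcidin (hamp) removes from the membrane. Copper enters through Slc31a1 (CTR1), is handed by the chaperone Atox1 to the pumps Atp7a and Atp7b, and is loaded by them onto enzymes of the secretory pathway or expelled. STEAP proteins are reductases of iron and copper in endosomes and at the cell surface.

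Library totals ran from 15665053 to 22207603 counted reads. Levels below are scaled FPKM, the deposited count divided by exonic length and by the TMM-scaled library total, on the FPKM scale, so they can be compared between genes. Control replicate 3 stood apart: its Spearman correlation over genes with the other controls was 0.927 and 0.944, against 0.991 between those 2 and 0.991 to 0.995 within the exposed groups. It lay at least 1.5-fold from the mean of the other controls in 14 of the 34 genes, 9 lower and 5 higher, beside 44.8% of all genes tested. The share of long over short genes also differed between the controls, measured as the difference in log2 level between the longest and shortest eighth of genes. It was 0.15 in control replicate 3, inside the range of -0.06 to 0.16 in the exposed libraries. In control replicates 1 and 2 it was -0.49 and -0.38, outside that range. The part of control replicate 3 in the results below was not tested as a cause, and results that rest on this library are given with and without it. Markers of 8 cell types of the whole embryo were all detected as lists, and their summed levels are given beside the genes they touch. In each list the lowest control sum was that of control replicate 3.

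**Figure D1:**
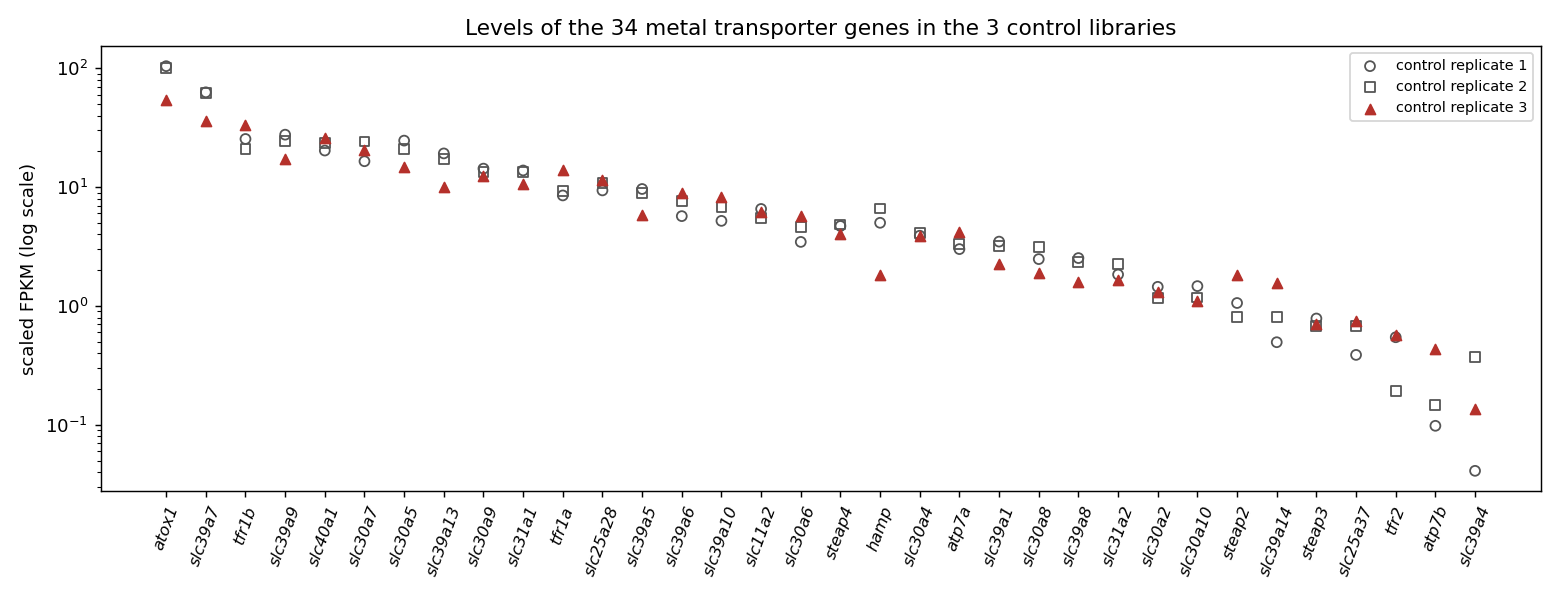
Scaled FPKM of the 34 zinc, iron and copper genes in the 3 control libraries, on a logarithmic axis and ordered by the mean. Levels ran from 85.9 for atox1 to 0.182 for slc39a4, and control replicate 3 lay apart from the other 2 in many genes.

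In control embryos the 34 levels covered a wide range. The copper chaperone gene atox1 was highest at a mean of 85.9 ± 28 scaled FPKM (SD, n = 3, as for all means below), followed by slc39a7, whose product releases zinc from the endoplasmic reticulum, at 53.5 ± 15. The next were the transferrin receptor gene tfr1b at 26.4 ± 6.09, slc39a9 at 23.1 ± 5.28 and slc40a1 at 23.1 ± 2.71, and these 3 lay within each other's spread. Lowest were slc25a37 at 0.605 ± 0.191, tfr2 at 0.436 ± 0.21, atp7b at 0.225 ± 0.179 and slc39a4 at 0.182 ± 0.169, again neighbours within their spread. slc39a4, the zinc importer of the mammalian gut, had between 1 and 12 reads in each of the 12 libraries and was not tested, and its counts overlapped between groups.

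At 50 µg/L the zinc exporters of the SLC30 family and the iron genes that changed were higher than in controls. In the copper and STEAP group slc31a1, steap2 and steap4 were lower and atp7a was higher. The SLC39 importers went in both directions. With edgeR's quasi-likelihood test and Benjamini-Hochberg adjustment over all 19821 genes tested, which gives every adjusted p below, 10 of the 32 genes rose and 6 fell at 50 µg/L, beside 17.6% and 21.9% of all genes. At 30 µg/L 8 rose and 4 fell, beside 13.4% and 17.3%. At 6 µg/L 2 rose and 2 fell, beside 5.48% and 8.88%, so that the share of these genes called at 6 µg/L in either direction, 12.5%, lay near the 14.4% of all genes. Of the 32, 12 were called at no dose and 20 at 1 or more doses, the latter beside 49.7% of all genes. The 3 comparisons share the same controls.

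The sizes of the changes were mostly modest. The median log2 fold change of the 32 genes was 0.02 at 6 µg/L, 0.13 at 30 µg/L and 0.24 at 50 µg/L, beside 0, -0.04 and -0.04 over all genes tested. Single genes ran from -1.08 to 0.77 at 6 µg/L, from -0.90 to 0.89 at 30 µg/L and from -1.28 to 1.61 at 50 µg/L. All 3 exposed libraries lay above all 3 controls in 13 genes at 50 µg/L and below them in 7, beside 21.2% and 23% of all genes. These counts were 10 and 5 at 30 µg/L, beside 17.5% and 20.1%, and 7 and 5 at 6 µg/L, beside 12.1% and 13.7%. Without control replicate 3 the test called 13 higher and 10 lower at 50 µg/L (30.8% and 32.1% of all genes), 11 and 9 at 30 µg/L (29.7% and 32.2%), and 9 and 10 at 6 µg/L (28.6% and 27.9%). Fitted on the 6 µg/L and control groups alone, edgeR called none of the 32, beside 0.626% of all genes higher and 2.13% lower, with 4 higher and 3 lower at an unadjusted p under 0.05. On all 12 libraries DESeq2 called 3 higher and 2 lower at 6 µg/L, beside 1577 and 2135 of all genes. Limma also called 3 and 2, beside 1789 and 1450 of all genes.

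**Figure D2:**
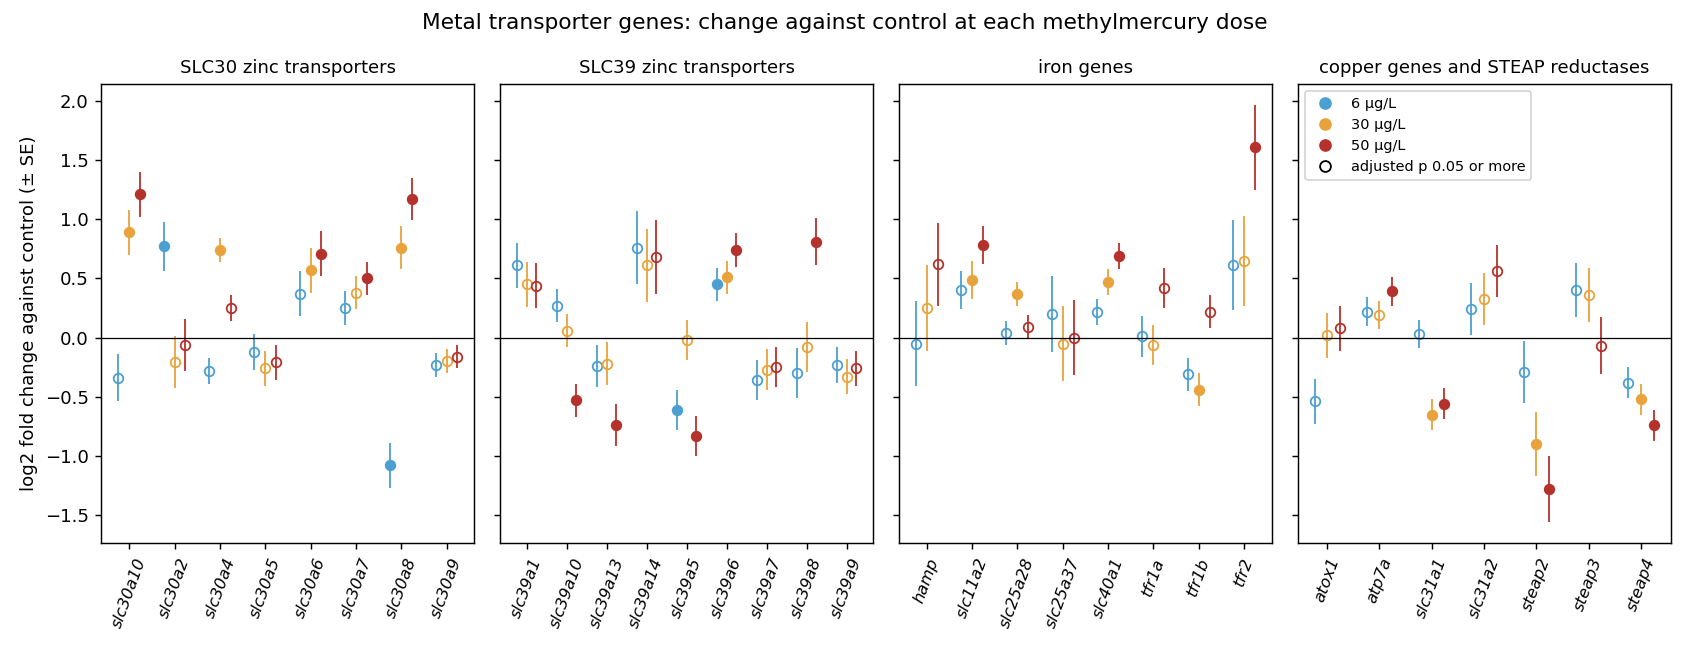
Log2 fold change against the control ± SE at 6, 30 and 50 µg/L MeHg for the 32 genes tested, grouped by role, with filled points for an adjusted p under 0.05. At 50 µg/L the values run from -1.28 for steap2 to 1.61 for tfr2, and the 4 filled SLC30 points all lie above 0.

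Among the 8 SLC30 genes, 4 rose and none fell at 50 µg/L, beside 17.6% and 21.9% of all genes, with a median log2 fold change of 0.37. The counts at 30 µg/L were again 4 and 0, beside 13.4% and 17.3%, with slc30a4 called at 30 µg/L only and slc30a7 at 50 µg/L only. At an unadjusted p under 0.05 edgeR had 5 higher and 0 lower at either dose. In either direction 8459 of 19821 genes passed that rule at 30 µg/L and 9569 at 50 µg/L. DESeq2 called 0 lower at both doses, beside 3449 and 4256 of all genes, and limma 0, beside 3801 and 4481. At 30 µg/L limma had 1 lower at an unadjusted p under 0.05. The lowest SLC30 value at 50 µg/L was -0.21 for slc30a5. Of these 8 genes, slc30a8 and slc30a10 changed most, the only 2 of them past a log2 fold change of 1 at 50 µg/L. The paralog slc30a1a, left out by the rule, stood at 1.27 at that dose. Mammalian SLC30A8 loads zinc into the insulin granules of beta cells, and human SLC30A10 is known as an exporter of manganese.

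The gene slc30a8 (chromosome 19, 46343385 to 46362232 on the plus strand of GRCz11) fell at the lowest dose and rose at the others. It measured 2.48, 3.13 and 1.9 in the 3 controls, 1.46, 1.13 and 0.953 at 6 µg/L, 4.28, 3.99 and 4.46 at 30 µg/L, and in the 50 µg/L libraries 5.93, 5.46 and 5.46. The 4 groups did not overlap, with the 6 µg/L libraries lowest and the 50 µg/L libraries highest. The log2 fold change was -1.08 ± 0.19 (SE) at 6 µg/L (edgeR adjusted p = 0.0035), 0.76 ± 0.18 at 30 µg/L (adjusted p = 0.0080) and 1.17 ± 0.18 at 50 µg/L (adjusted p = 3.7e-04). The 3 calls held with each of the 12 libraries left out in turn, and the fall at 6 µg/L was lost when only those 2 groups were fitted. The islet list, measured for 10 of its 12 genes, with insb at 0 in some libraries, summed to 160 to 197 in controls, 157 to 176 at 6 µg/L, 112 to 116 at 30 µg/L and 107 to 112 at 50 µg/L. Of its 9 tested genes, 2 were called lower and none higher at each of the higher doses. At 30 µg/L the lower genes were neurod1 and gcga, beside 17.3% of all genes lower and 13.4% higher. At 50 µg/L they were neurod1 and sst1.1, beside 21.9% of all genes lower and 17.6% higher. neurod1, which neurons also express, was at -0.94 and -1.32, while ins was at -0.71 (adjusted p = 0.059) and -0.54 (adjusted p = 0.12), and at 50 µg/L gcga, gcgb and pdx1 were at 0.29, 0.34 and 0.43 without passing. The part of islet cells in the result was not tested.

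The gene slc30a10 (chromosome 13, 51966573 to 51973562, minus strand) measured 1.47, 1.18 and 1.1 in controls and 0.888, 0.985 and 1.06 at 6 µg/L. At 30 µg/L it measured 1.95, 2.2 and 2.77, and the 50 µg/L libraries held 2.92, 3.08 and 2.62. All 6 libraries of the 30 and 50 µg/L groups lay above the controls, and those of the 6 µg/L group lay just below them. The rise was 0.89 ± 0.19 on the log2 scale at 30 µg/L (edgeR adjusted p = 0.0042) and 1.21 ± 0.19 at 50 µg/L (adjusted p = 3.7e-04), both held without any single library. The difference at 6 µg/L, -0.34 ± 0.20, did not pass the test (adjusted p = 0.27).

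The vesicular zinc transporter gene slc30a4 peaked at the middle dose. Its levels were 3.90, 4.09 and 3.89 in controls, 3.14, 3.44 and 3.18 at 6 µg/L, 6.74, 6.51 and 6.66 at 30 µg/L, and in the 50 µg/L libraries 4.91, 4.29 and 4.93. The groups did not overlap. Only the rise at 30 µg/L passed against the controls, at 0.74 ± 0.10 (edgeR adjusted p = 3.0e-04), and the values at 6 and 50 µg/L were -0.28 ± 0.11 (adjusted p = 0.092) and 0.25 ± 0.11 (adjusted p = 0.078). The locus overlaps spata5l1 and C18H15orf48 on the opposite strand, the strand setting of the counting is not given in the sources used here, and so their reads cannot be told apart from those of slc30a4. At 30 µg/L spata5l1 changed by 0.82 (adjusted p = 0.0037) and C18H15orf48 by 2.48 (adjusted p = 3.9e-05). At 50 µg/L they stood at 1.00 (adjusted p = 6.8e-04) and 1.84 (adjusted p = 2.6e-04), while slc30a4 was at 0.25. Opposite-strand genes also overlap steap2, tfr1b and slc39a10, at a mean deposited FPKM of 0.0125, 0.294 and 0.288.

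The gene slc30a2, which in mammals fills secretory vesicles with zinc, was high at the lowest dose only. It measured 1.45, 1.16 and 1.3 in controls and 2.21, 2.24 and 2.22 at 6 µg/L. At 30 µg/L it measured 1.31, 1.16 and 0.895, and at 50 µg/L 1.04, 1.55 and 1.17. The 6 µg/L libraries lay above all 9 others, which overlapped. The rise at 6 µg/L was 0.77 ± 0.21 (edgeR adjusted p = 0.030). This call was lost without control replicate 2 or any 1 of the 6 µg/L libraries, where the rise stood at 0.70 to 0.79 (adjusted p = 0.066 to 0.097). Against control replicate 3 alone the call was lost as well.

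The genes slc30a6 and slc30a7, whose mammalian products carry zinc into the early secretory pathway, rose more gradually. slc30a6 measured 3.46, 4.65 and 5.75 in controls, 5, 6.33 and 6.72 at 6 µg/L, 6.26, 7.26 and 7.19 at 30 µg/L, and in the 50 µg/L libraries 6.72, 7.31 and 8.81. It rose by 0.57 ± 0.19 at 30 µg/L (edgeR adjusted p = 0.038) and by 0.71 ± 0.19 at 50 µg/L (adjusted p = 0.010). slc30a7 measured 16.5, 24.2 and 20.7 in controls, 27.2, 23.4 and 22.4 at 6 µg/L, 28.7, 27.7 and 23.9 at 30 µg/L, and in the 50 µg/L libraries 27.6, 28.7 and 30.3, with the 50 µg/L libraries above all controls. It rose by 0.50 ± 0.14 at 50 µg/L (adjusted p = 0.014). Both calls at 50 µg/L were lost without replicate 3 of that group, at 0.59 for slc30a6 (adjusted p = 0.052) and 0.46 for slc30a7 (adjusted p = 0.053). That of slc30a6 at 50 µg/L was also lost against control replicate 3 alone. The call of slc30a6 at 30 µg/L was lost without control replicate 1 or 2, any 30 µg/L library, or replicate 2 of the 6 or 50 µg/L group (log2 0.42 to 0.64, adjusted p = 0.051 to 0.12), and with library totals, limma, the compared groups alone or control replicate 3 alone. The remaining SLC30 genes, slc30a5 and slc30a9, passed at no dose, with control means of 20.1 ± 4.95 and 13.4 ± 0.927. The slc30a9 libraries at 30 and 50 µg/L lay below all controls, at -0.20 (edgeR adjusted p = 0.14) and -0.16 (adjusted p = 0.23).

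**Figure D3:**
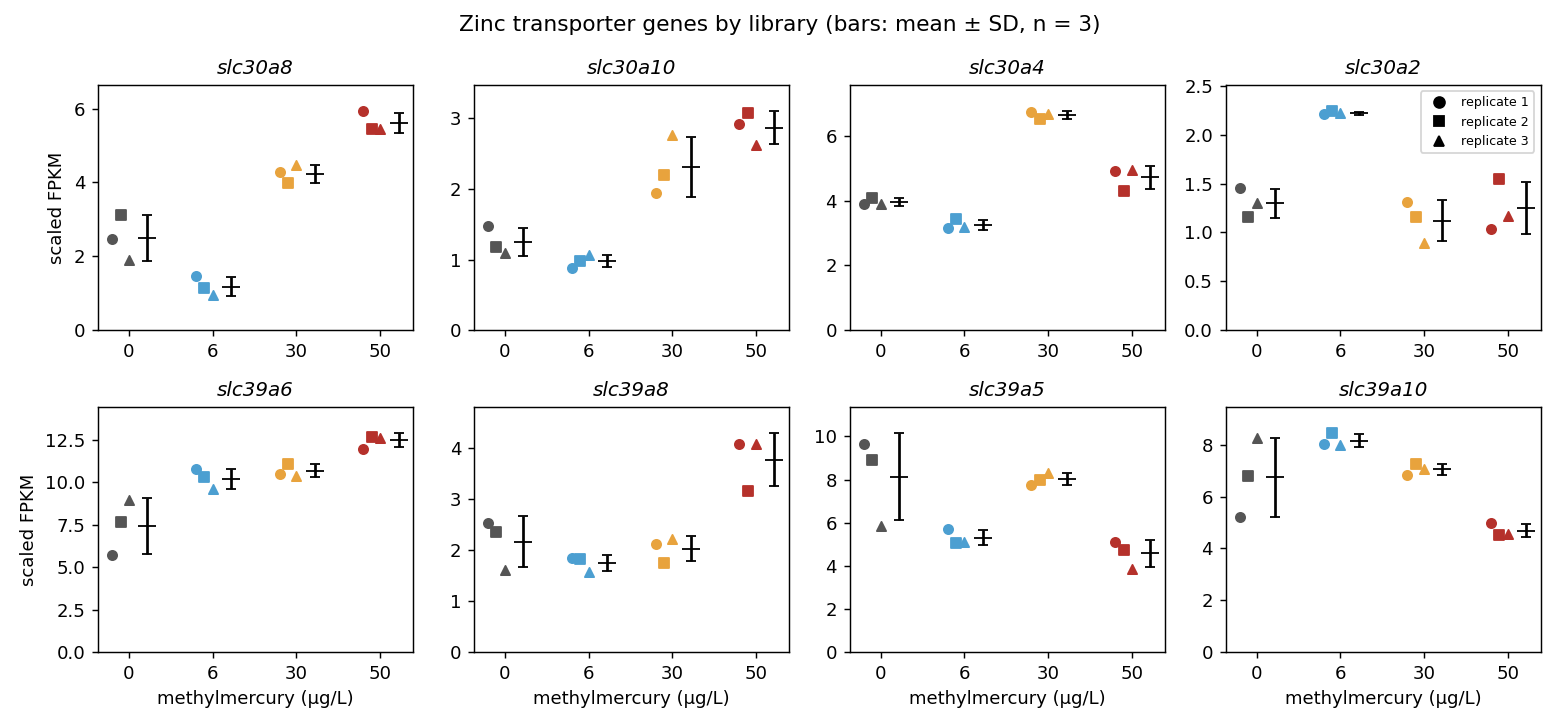
Scaled FPKM of 8 zinc transporter genes in the 12 libraries by MeHg concentration, with circles, squares and triangles for replicates 1, 2 and 3 and bars for the mean ± SD. For slc30a8 and slc30a4 the 4 groups do not overlap, and slc30a2 is high in the 6 µg/L libraries only.

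Of the 10 SLC39 importers 9 were tested, and 2 rose and 3 fell at 50 µg/L, which is 22.2% and 33.3% beside 17.6% and 21.9% of all genes, with a median log2 fold change of -0.25. At 30 µg/L slc39a6 alone was called by edgeR, as higher, beside 13.4% of all genes higher and 17.3% lower. At an unadjusted p under 0.05, 2 were higher and 1 lower by edgeR, beside 8459 of 19821 genes in either direction. Limma called 1 higher and 1 lower, beside 2349 and 3801 of all genes. At 6 µg/L slc39a6 rose and slc39a5 fell, beside 5.48% and 8.88% of all genes.

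The gene slc39a6 (LIV-1, a zinc importer known in zebrafish for its part in gastrulation movements) rose at every dose. It measured 5.70, 7.69 and 8.97 in controls and 10.8, 10.3 and 9.63 at 6 µg/L. At 30 µg/L it measured 10.5, 11.1 and 10.4, and the 50 µg/L libraries held 12, 12.7 and 12.6. All 9 exposed libraries lay above all 3 controls. The rise was 0.45 ± 0.14 at 6 µg/L (edgeR adjusted p = 0.049), 0.51 ± 0.14 at 30 µg/L (adjusted p = 0.017) and 0.74 ± 0.14 at 50 µg/L (adjusted p = 0.0015). The call at 6 µg/L held without control replicate 3 and was lost without any of the other 11 libraries (log2 0.31 to 0.50, adjusted p = 0.064 to 0.13). That call was also lost with library totals, with no expression filter, with a mean FPKM of at least 2 and against control replicate 3 alone. At 30 µg/L the call was lost without replicate 2 of that group (adjusted p = 0.051) and with library totals. It was also lost with the compared groups alone and against control replicate 3 alone. The call at 50 µg/L held in every alternative fit, each called at an adjusted p under 0.05. Of all genes, 2.73% were called higher at all 3 doses.

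The gene slc39a8, whose mammalian product also carries manganese, iron and cadmium, rose at the highest dose. It measured 2.53, 2.35 and 1.60 in controls, 1.85, 1.82 and 1.56 at 6 µg/L, 2.11, 1.75 and 2.22 at 30 µg/L, and in the 50 µg/L libraries 4.06, 3.16 and 4.07. The 50 µg/L libraries lay above all 9 others. The log2 fold change was 0.81 ± 0.20 (edgeR adjusted p = 0.0076), 0.62 without control replicate 3 (adjusted p = 0.0093), and the values at 6 and 30 µg/L, -0.30 and -0.08, did not pass.

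The gene slc39a14, a relative with similar substrates, gave no call. It measured 0.496, 0.802 and 1.56 in controls, 1.61, 1.94 and 1.41 at 6 µg/L, 1.35, 1.71 and 1.43 at 30 µg/L, and in the 50 µg/L libraries 1.73, 1.54 and 1.44. Control replicate 3 lay 2.40-fold above the mean of the other controls and among the exposed libraries. Its log2 fold change at 50 µg/L was 0.68 (edgeR adjusted p = 0.10), but 1.23 without that library (adjusted p = 2.4e-04) and 0.02 with it as the only control (adjusted p = 0.96).

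The gene slc39a5, expressed in mammalian gut and pancreas, was lower at 6 and 50 µg/L but not at 30 µg/L. It measured 9.64, 8.92 and 5.86 in controls, 5.70, 5.08 and 5.11 at 6 µg/L, 7.76, 8 and 8.32 at 30 µg/L, and in the 50 µg/L libraries 5.09, 4.76 and 3.88. The 6 and 50 µg/L libraries lay below all controls, with control replicate 3 nearest to them. The log2 fold change was -0.61 ± 0.17 at 6 µg/L (edgeR adjusted p = 0.034), -0.02 ± 0.17 at 30 µg/L (adjusted p = 0.95) and -0.83 ± 0.17 at 50 µg/L (adjusted p = 0.0028). Against control replicate 3 alone the value at 50 µg/L was -0.35, and the calls at 6 and 50 µg/L were both lost. Without that library the value at 50 µg/L was -1.03 (adjusted p = 5.6e-07). The call at 6 µg/L held without control replicate 3 or replicate 1 or 3 of the 50 µg/L group. Without any of the other 9 libraries it was lost (log2 -0.66 to -0.46, adjusted p = 0.051 to 0.12). The exocrine pancreas list (15 of 15 genes measured, with ela3l, cel.2 and amy2a at 0 in some libraries) summed to 77.4 to 103 in controls, 17.5 to 22.6 at 6 µg/L, 24.3 to 26.8 at 30 µg/L and 27.5 to 34.2 at 50 µg/L, and its part in the result was not tested.

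The genes slc39a10 and slc39a13 were lower at the highest dose. slc39a10, a close relative of slc39a6, measured 5.20, 6.79 and 8.25 in controls, 8.04, 8.44 and 8 at 6 µg/L, 6.83, 7.24 and 7.07 at 30 µg/L, and in the 50 µg/L libraries 4.97, 4.51 and 4.55. The 50 µg/L libraries lay below all others, at -0.53 ± 0.14 against the controls (edgeR adjusted p = 0.010), a call lost without replicate 2 of that group (-0.48, adjusted p = 0.053). slc39a13, which serves connective tissue in mammals, measured 19.2, 17.3 and 10.1 in controls, 14.3, 12.2 and 12.8 at 6 µg/L, 14.0, 12.7 and 13.3 at 30 µg/L, and in the 50 µg/L libraries 9.22, 9.47 and 9.07. Its fall at 50 µg/L was 0.74 on the log2 scale, with SE 0.18 (adjusted p = 0.0069), and control replicate 3, at 10.1, lay close to the 50 µg/L libraries. Against that library alone the log2 fold change was -0.13 (adjusted p = 0.37), and without it -0.98 (adjusted p = 3.3e-08).

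The plasma membrane importer gene slc39a1 measured 3.48, 3.20 and 2.24 in controls, 5.52, 3.91 and 4.14 at 6 µg/L, 4.22, 3.78 and 4.08 at 30 µg/L, and in the 50 µg/L libraries 3.58, 4.58 and 3.88. Every exposed library lay above every control. The log2 fold changes of 0.61, 0.45 and 0.44 did not pass (edgeR adjusted p = 0.051, 0.094 and 0.089). The abundant slc39a7 and slc39a9 passed at no dose, with log2 values from -0.36 to -0.23.

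Among the 8 iron genes, 3 rose and none fell at 50 µg/L, beside 17.6% and 21.9% of all genes. The other 5 did not pass, and the median log2 fold change was 0.52. The share called in either direction, 37.5%, lay near the 39.5% of all genes. At an unadjusted p under 0.05, 4 were higher and 0 lower, beside 9569 of 19821 genes in either direction. DESeq2 called 4 and 0, beside 3908 and 4256 of all genes, and limma 3 and 0, beside 3312 and 4481. The 3 were slc40a1, slc11a2 and tfr2, the genes of the cellular iron exporter, of DMT1 and of the second transferrin receptor, which in mammals senses iron in the liver. At 30 µg/L slc40a1, slc11a2 and slc25a28 rose and tfr1b fell, beside 13.4% and 17.3% of all genes. At 6 µg/L none was called by edgeR, DESeq2 or limma, beside 14.4% of all genes by edgeR. At an unadjusted p under 0.05 edgeR had 2, beside 6209 of 19821 genes.

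The gene slc40a1 (chromosome 9, 41103127 to 41113878, plus strand), encoding ferroportin, rose at 30 and 50 µg/L. It measured 20.3, 23.3 and 25.7 in controls, 26.6, 26.4 and 27.9 at 6 µg/L, 33.4, 28.6 and 34.1 at 30 µg/L, and in the 50 µg/L libraries 37.5, 36.5 and 37.8. Every exposed group lay above the controls, and the 4 groups did not overlap. Against the controls it stood at 0.22 ± 0.11 on the log2 scale at 6 µg/L (edgeR adjusted p = 0.18), 0.47 ± 0.11 at 30 µg/L (adjusted p = 0.0065) and 0.69 ± 0.11 at 50 µg/L (adjusted p = 3.8e-04). The call at 50 µg/L held in every alternative fit. Macrophages are a main site of ferroportin, and the macrophage and neutrophil list (12 of 12 measured, with cd74a at 0 in some libraries) summed to 60.2 to 88.1 in controls, 73 to 78 at 6 µg/L, 112 to 166 at 30 µg/L and 177 to 205 at 50 µg/L. Of its 11 tested genes, 7 were called higher and 1 lower at 50 µg/L, beside 17.6% and 21.9% of all genes. The macrophage marker csf1ra was the lower one (-0.66, edgeR adjusted p = 0.0011), and mpeg1.1, at 0.17, did not pass (adjusted p = 0.62). The part of this list in the rise of slc40a1 was not tested.

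The hepcidin gene hamp, the hormone that removes ferroportin, did not pass at any dose. It measured 5.01, 6.61 and 1.84 in controls, 4.61, 3.22 and 5.15 at 6 µg/L, 4.79, 5.71 and 5.36 at 30 µg/L, and in the 50 µg/L libraries 5.28, 7.55 and 7.65. The groups overlapped, and control replicate 3 was the lowest of the 12 libraries. The 50 µg/L group stood at a log2 fold change of 0.62 ± 0.35 (edgeR adjusted p = 0.18), 0.21 without that library (adjusted p = 0.43) and 1.89 with it as the only control (adjusted p = 3.6e-04). The hepatocyte list (16 of 16 measured, with ttr at 0 in some libraries) summed to 3450 to 6290 in controls, 3030 to 3640 at 6 µg/L, 2700 to 2930 at 30 µg/L and 3070 to 3190 at 50 µg/L. The 3450 was control replicate 3, and the other controls gave 6290 and 5460. Of its 14 tested genes, 3 were called higher (fga, cp and c3a.1) and 8 lower at 50 µg/L, beside 17.6% and 21.9% of all genes. At 30 µg/L 1 was higher and 9 lower, beside 13.4% and 17.3%. At 6 µg/L 0 were higher and 5 lower, beside 5.48% and 8.88%. The part of this list was not tested.

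The gene slc11a2, encoding DMT1, measured 6.55, 5.46 and 6.17 in controls and 7.36, 8.60 and 7.99 at 6 µg/L. At 30 µg/L it measured 7.63, 7.89 and 9.97, and at 50 µg/L 8.21, 11.2 and 11.8. All 9 exposed libraries lay above the 3 controls. It rose by 0.49 ± 0.16 at 30 µg/L (edgeR adjusted p = 0.038) and by 0.78 ± 0.16 at 50 µg/L (adjusted p = 0.0025), and its 0.40 ± 0.16 at 6 µg/L did not pass (adjusted p = 0.11). The call at 30 µg/L was lost without control replicate 2, replicate 2 of the 6 µg/L group, or replicate 2 or 3 of the 30 µg/L group (log2 0.36 to 0.56, adjusted p = 0.052 to 0.17). It was also lost with library totals, with limma, with the compared groups alone and with control replicate 3 as the only control. That at 50 µg/L held in every alternative fit. The enterocyte list (14 of 14 measured), the cells in which DMT1 takes up dietary iron, summed to 522 to 925 in controls, 450 to 529 at 6 µg/L, 529 to 575 at 30 µg/L and 503 to 527 at 50 µg/L.

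The transferrin receptor genes differed in their levels and in which dose moved them. tfr2 was scarce, with 19, 9 and 30 reads in the controls against 55, 57 and 60 at 50 µg/L, and the levels were 0.546, 0.194 and 0.567 in controls, 0.780, 0.635 and 0.570 at 6 µg/L, 0.856, 0.367 and 0.799 at 30 µg/L, and in the 50 µg/L libraries 1.28, 1.40 and 1.3. The 50 µg/L libraries lay above all others, and the rise of 1.61 ± 0.36 (edgeR adjusted p = 0.0042) held in every alternative fit that included tfr2. The fit with a mean FPKM of at least 2 did not include it. tfr1b measured 25.4, 20.9 and 33 in controls, 21.6, 21.3 and 21.0 at 6 µg/L, 20, 18.7 and 19.8 at 30 µg/L, and in the 50 µg/L libraries 30.9, 32.0 and 29.8. The 30 µg/L libraries lay below the controls and the 50 µg/L libraries within their range. Its fall at 30 µg/L was 0.44 on the log2 scale, with SE 0.14 (adjusted p = 0.028), and was lost without control replicate 1, any 30 µg/L library or replicate 2 of the 50 µg/L group (adjusted p = 0.051 to 0.10). It was also lost with library totals, with limma, with no expression filter and with the compared groups alone. At 50 µg/L it stood at 0.22 (adjusted p = 0.21), 0.41 without control replicate 3 (adjusted p = 4.8e-04) and -0.09 with it as the only control.

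The gene tfr1a, which in zebrafish supplies iron to red blood cells, measured 8.51, 9.27 and 14.0 in controls, 11.2, 11.9 and 9.02 at 6 µg/L, 10.5, 9.91 and 10.3 at 30 µg/L, and in the 50 µg/L libraries 14.2, 15.5 and 13.1. Control replicate 3 lay among the 50 µg/L libraries. The 50 µg/L group differed from the controls by 0.42 ± 0.17 on the log2 scale (edgeR adjusted p = 0.069), 0.67 without that library (adjusted p = 4.0e-05) and 0.03 with it as the only control (adjusted p = 0.88). The erythroid list (15 of 16 measured) summed to 1970 to 6850 in controls, 3080 to 4010 at 6 µg/L, 3890 to 4260 at 30 µg/L and 4240 to 4730 at 50 µg/L. The 1970 was control replicate 3, and the other controls gave 6850 and 6320. Of its 15 tested genes, 4 were called higher and 0 lower at 50 µg/L, beside 17.6% and 21.9% of all genes. At 30 µg/L 0 were higher and 1 lower, beside 13.4% and 17.3%. At 6 µg/L 1 was higher and 2 lower, beside 5.48% and 8.88%. The part of this list was not tested.

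The mitoferrin genes import iron into mitochondria. slc25a28 measured 9.38, 10.8 and 11.5 in controls, 10.5, 11.5 and 10.5 at 6 µg/L, 13.7, 13 and 14.2 at 30 µg/L, and in the 50 µg/L libraries 10.5, 11.5 and 11.7. Only the 30 µg/L libraries lay apart, above all others, at 0.37 ± 0.10 (edgeR adjusted p = 0.019), a call lost without replicate 1 or 3 of that group (adjusted p = 0.054 to 0.077), and with library totals, the compared groups alone or control replicate 3 alone. slc25a37, the erythroid mitoferrin of zebrafish, measured 0.388, 0.679 and 0.748 in controls, 0.702, 0.883 and 0.513 at 6 µg/L, 0.538, 0.771 and 0.491 at 30 µg/L, and in the 50 µg/L libraries 0.671, 0.421 and 0.743. The groups overlapped, and the log2 fold change at 50 µg/L was 0.00 ± 0.32.

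**Figure D4:**
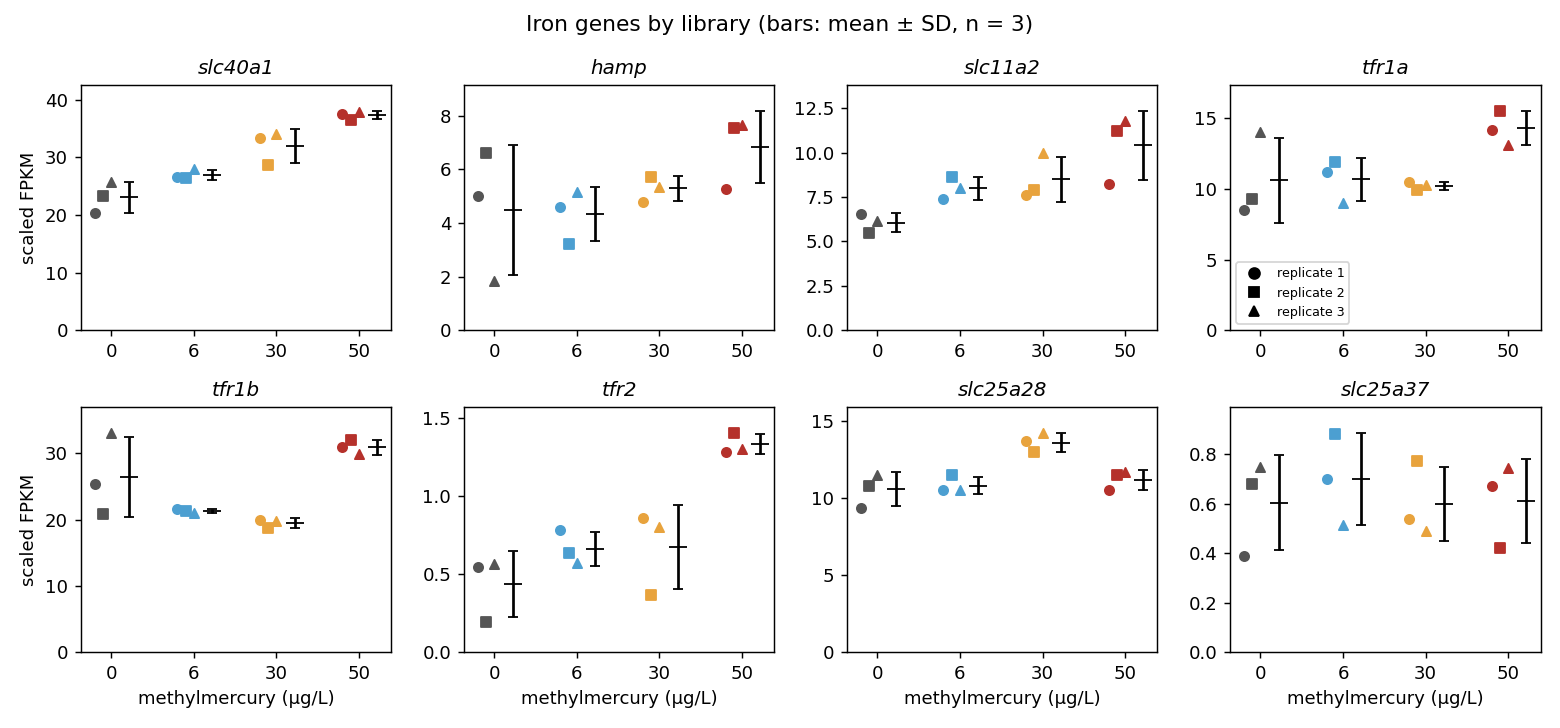
Scaled FPKM of the 8 iron genes in the 12 libraries by MeHg concentration, with circles, squares and triangles for replicates 1, 2 and 3 and bars for the mean ± SD. The controls of slc40a1 lie from 20.3 to 25.7 and its 50 µg/L libraries from 36.5 to 37.8, while hamp and slc25a37 overlap between groups.

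In the copper and STEAP group, 1 of the 7 tested genes rose and 3 fell at 50 µg/L, beside 17.6% and 21.9% of all genes. The STEAP genes, whose products reduce both iron and copper, were counted here and not with the iron genes. At 30 µg/L none rose and 3 fell, beside 13.4% and 17.3%. None was called at 6 µg/L by edgeR, DESeq2 or limma, beside 14.4% of all genes by edgeR. At an unadjusted p under 0.05 edgeR had 2 at 6 µg/L, beside 6209 of 19821 genes. DESeq2 and limma also had 0 higher at 30 µg/L, beside 3119 and 2349 of all genes. The count of 0 higher at that dose was again 0 at an unadjusted p under 0.05. By edgeR 8459 of 19821 genes passed that last rule in either direction. The genes that fell were, at both 30 and 50 µg/L, the importer gene slc31a1 and the reductase genes steap2 and steap4.

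The gene slc31a1 (chromosome 5, 57328535 to 57354915, plus strand), encoding the copper importer CTR1, fell at 30 and 50 µg/L. It measured 13.8, 13.3 and 10.6 in controls, 13.6, 12.9 and 11.8 at 6 µg/L, 9.17, 7.14 and 7.62 at 30 µg/L, and in the 50 µg/L libraries 8.59, 8.52 and 8.45. The 30 and 50 µg/L libraries lay below all controls and below the 6 µg/L libraries, which overlapped the controls. The log2 fold change was 0.03 ± 0.12 at 6 µg/L, -0.65 ± 0.13 at 30 µg/L (edgeR adjusted p = 0.0024) and -0.56 ± 0.13 at 50 µg/L (adjusted p = 0.0041), and both calls held under every library left out in turn. Its relative slc31a2 measured 1.84, 2.24 and 1.66 in controls, 2.2, 2.00 and 2.61 at 6 µg/L, 2.95, 1.72 and 2.53 at 30 µg/L, and in the 50 µg/L libraries 2.35, 3.22 and 2.92. Its log2 fold change at 50 µg/L was 0.56 ± 0.22 (adjusted p = 0.057), which did not pass.

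The pump gene atp7a, which in zebrafish supplies copper to the enzyme of melanin synthesis, measured 3.01, 3.33 and 4.18 in controls, 3.90, 4.35 and 4.04 at 6 µg/L, 4.13, 3.92 and 4.01 at 30 µg/L, and in the 50 µg/L libraries 4.76, 4.86 and 4.21. It rose by 0.39 ± 0.12 at 50 µg/L (edgeR adjusted p = 0.024), with control replicate 3 just below the lowest of those libraries. That call was lost without control replicate 1 or 2 or replicate 1 or 2 of the 50 µg/L group (log2 0.32 to 0.38, adjusted p = 0.061 to 0.074), with library totals, limma, the compared groups alone or control replicate 3 alone, and with a correction for gene length, where it stood at 0.06 (adjusted p = 0.66). The melanophore list (10 of 11 measured) summed to 261 to 335 in controls, 331 to 346 at 6 µg/L, 400 to 447 at 30 µg/L and 382 to 387 at 50 µg/L. The second pump gene, atp7b, known for copper excretion by the mammalian liver, had 6, 12 and 40 reads in controls, 20, 28 and 25 at 6 µg/L, 20, 17 and 36 at 30 µg/L, and in the 50 µg/L libraries 20, 33 and 32 and was not tested. Its counts overlapped between groups, with the highest in control replicate 3.

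The chaperone gene atox1 was the most abundant of the 34 genes. It measured 104, 99.6 and 53.7 in controls, 62.7, 54.2 and 60.4 at 6 µg/L, 91.8, 85.2 and 83.7 at 30 µg/L, and in the 50 µg/L libraries 91.7, 88.0 and 91.9. The 6 µg/L libraries and control replicate 3 were low, and the remaining libraries lay between 83.7 and 104. At 6 µg/L the log2 fold change was -0.54 ± 0.19 (edgeR adjusted p = 0.078), but -0.80 without control replicate 3 (adjusted p = 4.9e-07) and 0.15 with it as the only control. At 50 µg/L it was 0.08 ± 0.19 (adjusted p = 0.78).

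Of the 3 STEAP genes, steap2 and steap4 fell. Control means were 4.52 ± 0.453 for steap4, 1.23 ± 0.527 for steap2 and 0.723 ± 0.0544 for steap3. steap2 measured 1.06, 0.811 and 1.82 in controls, 1.04, 0.917 and 1.1 at 6 µg/L, 0.674, 0.598 and 0.720 at 30 µg/L, and in the 50 µg/L libraries 0.555, 0.555 and 0.422. It fell by 0.90 on the log2 scale at 30 µg/L (SE 0.27, edgeR adjusted p = 0.024) and by 1.28 at 50 µg/L (SE 0.28, adjusted p = 0.0033). All 6 of those libraries lay below all controls, and without control replicate 3 the fall at 50 µg/L was 0.87 (adjusted p = 0.0027) while that at 30 µg/L was lost. It was also lost without any 1 of the 30 µg/L libraries, and over these fits the value at 30 µg/L ran from -0.96 to -0.49 (adjusted p = 0.058 to 0.086). Limma and the fit of the compared groups alone also lost it. steap4 measured 4.71, 4.85 and 4.01 in controls, 3.46, 3.36 and 3.61 at 6 µg/L, 3.37, 2.97 and 3.11 at 30 µg/L, and in the 50 µg/L libraries 2.39, 3.18 and 2.54. All 9 exposed libraries lay below the controls, and it fell by 0.52 at 30 µg/L (SE 0.13, adjusted p = 0.012) and by 0.74 at 50 µg/L (SE 0.13, adjusted p = 0.0010), while its -0.38 at 6 µg/L did not pass (adjusted p = 0.075). Against control replicate 3 alone the call of steap4 at 30 µg/L was lost. steap3, which reduces iron in the endosomes of red blood cell precursors in mammals, passed at no dose, with levels from 0.611 to 1.19 over the 12 libraries.

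**Figure D5:**
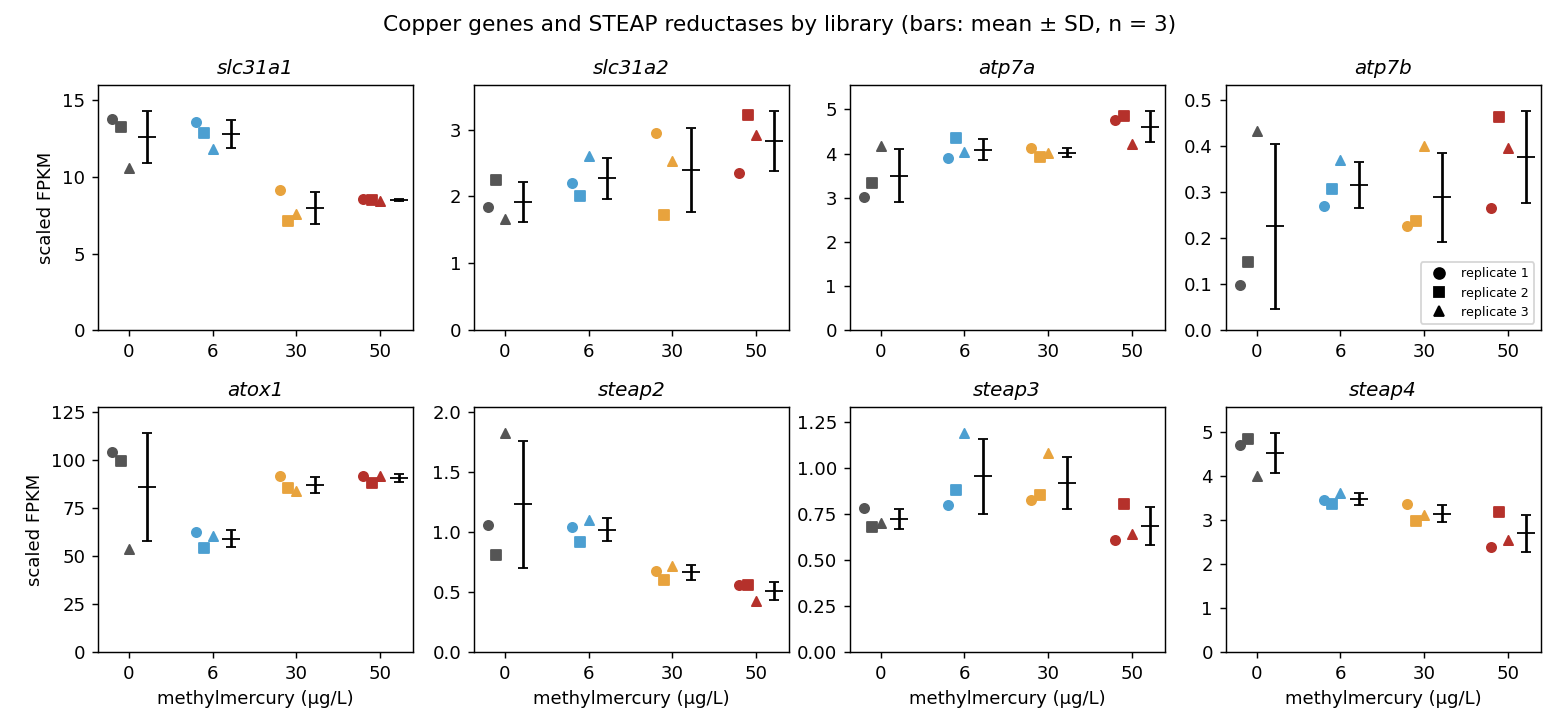
Scaled FPKM of the 8 copper and STEAP genes in the 12 libraries by MeHg concentration, with circles, squares and triangles for replicates 1, 2 and 3 and bars for the mean ± SD. The 30 and 50 µg/L libraries of slc31a1, steap2 and steap4 lie below all controls, and atox1 is low in control replicate 3 and in the 6 µg/L libraries.

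The exposed groups were also compared with each other, which uses no control library in the contrast. From 6 to 30 µg/L, 5 genes rose and 2 fell, beside 7.13% and 8.44% of all genes. slc30a8 rose by 1.84 ± 0.19 on the log2 scale (edgeR adjusted p = 7.6e-05), slc30a10 by 1.24 ± 0.19 (adjusted p = 0.0013) and slc30a4 by 1.03 ± 0.11 (adjusted p = 7.5e-05), while slc30a2 fell by 0.99 (SE 0.21, adjusted p = 0.0086) and slc31a1 by 0.68 (SE 0.13, adjusted p = 0.0034). These 5 held without any single library. The other 2 were slc39a5 at 0.60 (adjusted p = 0.035) and slc25a28 at 0.33 (adjusted p = 0.048). That of slc39a5 was lost without any of the 6 libraries compared (adjusted p = 0.068 to 0.12), and that of slc25a28 without any of 10 libraries, all but control replicates 1 and 3 (adjusted p = 0.058 to 0.16).

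From 30 to 50 µg/L, 2 genes rose and 3 fell, beside 4.18% and 4.44% of all genes. tfr1b rose by 0.67 ± 0.14 (edgeR adjusted p = 0.0098), the call that held without any single library, and slc39a8 rose by 0.89 ± 0.20 (adjusted p = 0.017). slc39a5 fell by 0.81 (adjusted p = 0.012), slc39a10 by 0.59 (adjusted p = 0.020) and slc30a4 by 0.49 (adjusted p = 0.011). A fit of these 2 groups alone called 8 higher and 5 lower, beside 15.1% and 14.6% of all genes. Without replicate 2 of the 50 µg/L group the call of slc30a4 was lost (-0.42, adjusted p = 0.064), and that of slc39a5 without its replicate 3 (-0.70, adjusted p = 0.069). The call of slc39a8 was lost without replicate 1 or 2 of the 30 µg/L group or replicate 1 or 3 of the 50 µg/L group, and that of slc39a10 without any of these 6 libraries (adjusted p = 0.054 to 0.076 and 0.054 to 0.093).

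A trend on the concentration over the 12 libraries called 9 of the 32 genes rising and 5 falling, beside 13.3% and 16.6% of all genes. It shares its libraries with the comparisons above. Per 10 µg/L, slc30a8 rose by 0.33 ± 0.07 on the log2 scale (edgeR adjusted p = 0.0020), slc30a10 by 0.29 ± 0.04 (adjusted p = 2.5e-04), tfr2 by 0.26 ± 0.07 (adjusted p = 0.0099) and slc40a1 by 0.13 ± 0.02 (adjusted p = 6.0e-04). The steepest fall was in steap2, at 0.25 per 10 µg/L (SE 0.05, adjusted p = 0.0017). The trends of slc30a6 and slc30a7 were lost without replicate 3 of the 50 µg/L group, that of slc39a8 without its replicate 1 or 3, that of slc39a10 without any of its libraries, and that of slc39a13 without any of them or control replicate 1 or 2 (adjusted p = 0.054 to 0.098). With library totals and with limma the trends of slc30a6, slc30a7 and slc39a6 were lost, with the dose as a rank that of slc39a10, and against control replicate 3 alone those of slc30a6 and slc39a13. A linear trend does not describe genes such as slc30a4 or slc30a8, whose 6 µg/L libraries lay below the controls.

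Partner genes of the 3 metals gave the setting. Of 8 zinc partners tested, 3 rose and 1 fell at 50 µg/L. Of 29 iron partners, 10 rose and 2 fell at 50 µg/L, and of 22 copper partners 3 rose and 7 fell, beside the 17.6% and 21.9% of all genes above. The metallothionein gene mt2, whose protein binds zinc, copper and mercury, measured 46.6 ± 17.5 in controls, 27.1 ± 3.6 at 6 µg/L, 225 ± 48 at 30 µg/L and 1220 ± 21.1 at 50 µg/L, with a rise of 4.71 ± 0.28 on the log2 scale at 50 µg/L (edgeR adjusted p = 2.6e-07). The paralogs left out above also rose at that dose, slc30a1a by 1.27 ± 0.12 (adjusted p = 1.1e-05) and slc30a1b by 0.58 ± 0.21 (adjusted p = 0.044), while cbwd fell by 0.52 (adjusted p = 0.030).

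Among the iron partners, the ferritin-like gene fthl27 measured 79.4 ± 7.77 in controls, 60.1 ± 7.61 at 6 µg/L, 36.3 ± 4.45 at 30 µg/L and 251 ± 7.5 at 50 µg/L. It fell by 0.40 at 6 µg/L (edgeR adjusted p = 0.046) and by 1.13 at 30 µg/L (adjusted p = 5.0e-05), and rose by 1.66 at 50 µg/L (adjusted p = 1.7e-06). Its near-identical ferritin-like copies could share reads with it. The transferrin gene tfa fell at every dose, from 399 ± 101 in controls to 167 ± 15.5, 211 ± 22.1 and 128 ± 3.85. aco1, the cytosolic aconitase that binds iron-responsive RNA elements when iron is low, rose by 0.94 ± 0.12 at 50 µg/L (adjusted p = 7.3e-05). The ferroxidase gene cp, which is also listed with copper, fell by 0.60 at 30 µg/L (adjusted p = 0.0012) and rose by 0.47 ± 0.10 at 50 µg/L (adjusted p = 0.0034). tfa and cp are also in the hepatocyte list, whose sums are given above beside hamp.

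Among the copper partners, the tyrosinase gene tyr, the copper enzyme of melanin synthesis, rose by 1.16 ± 0.14 at 30 µg/L (edgeR adjusted p = 1.3e-04) and by 0.56 ± 0.14 at 50 µg/L (adjusted p = 0.0086). It is 1 of the melanophore markers whose sums are given beside atp7a. The monooxygenase-like gene moxd1l fell by 1.07 at 30 µg/L (adjusted p = 0.0029) and by 1.32 at 50 µg/L (adjusted p = 5.3e-04).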

How the data were processed

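Poly(A) RNA of 12 whole-embryo libraries (4 groups of 3) was sequenced as paired reads of 150 bases, per the labels' protocols. The deposited table gives raw read counts per gene and FPKM per library, and the deposited FPKM equalled the count divided by exonic size and library total. Per the submitters' processing notes, the tools were HISAT2 2.0.1, HTSeq 0.6.1, cutadapt 1.9.1, FastQC 0.10.1 and DESeq2, and the build was GRCz11. Neither annotation release nor strand setting is given in the sources used here.

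Counts were tested with edgeR 4.0.16 in R 4.3.3 (TMM, quasi-likelihood, all 12 libraries, 19821 genes averaging at least 0.5 FPKM, called at an adjusted p under 0.05). SE was the log2 fold change divided by the square root of F, which is approximate. The script was tested on simulated data. Alternatives included DESeq2 1.42.0, limma 3.58.1 on log2(FPKM + 1), other filters, a gene length correction and each library left out.

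The genes and the partner and marker lists were chosen with earlier results of these data known. Genes described in full were up to 6 with the smallest adjusted p in each role group, plus slc40a1, tfr1a, tfr1b, hamp, slc11a2, slc25a37, slc31a1, atp7a, atp7b, atox1, slc39a4, slc30a8, slc39a8 and slc39a14, with up to 4 partners per list. The planned promoter and protein motif searches were not analysed here. Symbols of partners and markers were matched by name or through the RefSeq gene table. Where a fall is given without a sign, its log2 fold change is negative. For marker lists, the yolk syncytial layer list (8 of 8 genes) summed to 3290 to 6380 in controls, 4100 to 4840 at 6 µg/L, 4850 to 5290 at 30 µg/L and 4680 to 4940 at 50 µg/L.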

Additional observations from a re-analysis of the deposited data

How the results depend on the processing

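Over 1265 alternative values of the called genes, 1109 kept their call, 156 lost it and 0 changed sign. Of 16 calls at 50 µg/L, 9 held in every alternative fit that included the gene and 12 without each library. At 30 µg/L these were 4 and 6 of 12, and at 6 µg/L 0 and 1 of 4. All these fits were called at an adjusted p under 0.05. The stricter adjusted p and the log2 minimum below were applied to the counts only. The cause of the changes below was not tested. Read counts were lowest for slc39a4, atp7b and tfr2.

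Counts of these genes and of all genes, from the edgeR fit to the alternative, moved by over 1.5 times as follows. At 6 µg/L the 2 higher became 1 with a mean FPKM of at least 2 and 1 with the replicate block, and 0 when the compared groups were fitted alone, 0 at an adjusted p under 0.01 and 0 at a log2 fold change of at least 1. This count also moved with control replicate 3 as the only control. There slc30a2 and slc39a6, the 2 genes called higher in the edgeR fit, both lost their call. The 2 lower became 0 with the compared groups alone, 5 with the length correction, 4 with control replicate 3 alone, 1 at 0.01 and 1 at a log2 of 1. All genes went from 2846 to 547 with the compared groups, 4917 with control replicate 3 alone, 1031 at 0.01 and 836 at a log2 of 1.

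At 30 µg/L the 8 higher became 4 with library totals, 3 with the compared groups, 4 at 0.01 and 0 at a log2 of 1, and the 4 lower became 1, 1 and 0 in the last 3. All genes went from 6103 to 2314, 2989 and 1648 in the same order. At 50 µg/L the 10 higher became 6 with the compared groups and 3 at a log2 of 1, the 6 lower 1 at a log2 of 1, and all genes went from 7824 to 4413, 4695 at 0.01 and 2514 at a log2 of 1.

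From 6 to 30 µg/L the 5 higher became 3 at FPKM of at least 2, 3 at 0.01 and 3 at a log2 of 1, and the 2 lower became 1 at FPKM of at least 2, 4 with the compared groups, 4 with control replicate 3 alone and 0 at a log2 of 1. All genes went from 3086 to 6743, 7370, 1336 and 934 (compared groups, control replicate 3 alone, 0.01, log2 of 1). From 30 to 50 µg/L the 2 higher became 8, 7, 1 and 0, the 3 lower 5, 5, 0 and 0, and all genes went from 1708 to 5880, 5169, 706 and 666 in that order. For the dose trend at 0.01, 9 higher became 5, 5 lower became 3 and 5934 became 3255.

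With each library left out, the counts higher, lower and over all genes ran from 0 to 9, 1 to 10 and 1228 to 11190 at 6 µg/L, from 5 to 11, 2 to 9 and 3630 to 12259 at 30 µg/L, and from 8 to 13, 5 to 10 and 5771 to 12455 at 50 µg/L. Between 30 and 6 µg/L they ran from 3 to 7, 2 to 3 and 1648 to 7154, between 50 and 30 µg/L from 1 to 6, 1 to 5 and 852 to 4945, and for the trend from 6 to 11, 3 to 5 and 4449 to 6726.

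The replicate numbers were not taken to pair the samples, since the correlation of the deviations of same-numbered samples was not over 0.1 in every pair (-0.29 to 0.42 over 18 pairs). It was over 0.1 in 5 of 6 pairs of replicate 1 (0.08 to 0.42), and 7 of 12 libraries correlated best with their own number. Beside the losses named with each gene, the fit of the compared groups alone lost slc40a1 and steap4 at 30 µg/L, slc30a6, slc30a7, slc39a8, slc39a10 and slc39a13 at 50 µg/L and all 4 calls at 6 µg/L. Library totals and limma lost slc25a28 between 30 and 6 µg/L and slc39a10 between 50 and 30 µg/L. The replicate block lost 1 call, slc39a6 at 6 µg/L. Scaling by library totals moved the median of all genes by 0.09 at 6 µg/L and to -0.13 between 30 and 6 µg/L, where the median of the 32 genes went from 0.04 to -0.09; the length correction took it from 0.02 to -0.06 at 6 µg/L. The share of calls that were higher went from 38.2% to 50.6% with library totals and 55.2% with limma at 6 µg/L, from 43.7% to 33.7% with totals at 30 µg/L, from 45.8% to 25.7% and 26.2% between 30 and 6 µg/L, and from 44.4% to 31.5% with totals in the trend.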
